A study of Homo sapiens with 6 samples.

Results

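DNA replication genes were examined in HaCaT cells, an immortalized line of human keratinocytes, across 49 genes that act in licensing origins, moving the fork and supplying nucleotides. A gene was included when its symbol was on a list of replication genes and stood in the deposited table. All 49 on the list were found, among 12499 genes in the table, and all passed the filter on low counts. The cells were infected for 48 hours with LV-NC, a control lentivirus, or with LV-*ATF7*, a lentivirus in which the coding sequence of human *ATF7* stands in the pLVX-IRES-Puro vector, and both groups were then kept in high glucose for 24 hours. Poly(A) mRNA was sequenced in 3 libraries per group. The sources do not say whether the libraries of a group came from separate cultures, so a p-value here measures the spread between these libraries, which may be technical. *ATF7* is a transcription factor, and the comparison asks what mRNAs differ when the virus carrying it is present.

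A cell copies its DNA once per cycle. In G1 the origin recognition complex, with *CDC6* and *CDT1*, loads the MCM2-7 helicase onto origins, and geminin, the product of *GMNN*, keeps *CDT1* from loading it again later. In S phase *CDC45* and the GINS complex turn the loaded helicase into the moving form, polymerase alpha-primase lays down primers, the RFC complex loads the *PCNA* ring, and polymerases delta and epsilon extend the strands. Many of these genes are transcribed at the G1/S boundary under E2F factors, and in epidermis their products are found mainly in the dividing basal layer.

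Total counts ran from 16686472 to 20562768 per library, and the counts of the replication genes ran from 12 to 9426 in a single library, so counting error is small for most of them. Levels are given as CPM, the read counts brought to a common library size with TMM scaling, and 3 values for a group are those of replicates 1, 2 and 3, in that order. *ATF7* itself stood at 50.6, 46.5 and 52.2 CPM in LV-NC and 21.9, 25.7 and 28 CPM in LV-*ATF7* (log2 fold change -0.98, SE 0.12, edgeR adjusted p = 0.000189). The gene carried by the virus was therefore lower in the libraries labeled LV-*ATF7*, against the label, and every direction below is that of the libraries as labeled. *ATF7* shares 43.9% of its exon bases with other annotated genes, and how reads from the virus were counted is not given in the sources used here. LV-NC replicate 1 stood apart from the other LV-NC libraries, with a chi-square per gene of 74.6 and 66.8 against replicates 2 and 3, where the other pairs within a group lay between 2.83 and 10.4. Of 15 keratinocyte markers all were measured, with summed levels of 2559 to 3491 CPM in LV-NC and 8637 to 9380 CPM in LV-*ATF7*. The markers themselves differed between the groups. At an edgeR adjusted p under 0.05, 9 were higher in LV-*ATF7* and 2 lower, beside 34.7% and 32.9% of all genes tested. *KRT5* had a mean of 266 CPM in LV-NC and 3354 CPM in LV-*ATF7*, and *TP63* one of 15.5 and 231.5 CPM. *KRT14*, a basal keratin, was near 0 in some libraries (0.375, 12.5 and 11.3 CPM in LV-NC and 1.45, 1.38 and 1.82 CPM in LV-*ATF7*). Of the macrophage markers 3 of 12 were measured, at a summed 5.57 to 12.7 CPM, and of the fibroblast markers 2 of 10, at a summed 17.3 to 42.7 CPM. The macrophage genes PTPRC, SPI1 and CD68 and the fibroblast genes COL1A2 and COL3A1 had no row in the table. No gene in the table had fewer than 51 counts over the 6 libraries, so a missing row does not show that a gene was silent. Shares of all genes below are shares of the genes in this table.

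The replication genes did not move together between the groups. Subunits of the MCM helicase and of the polymerases, the nucleotide enzyme *DUT* and the methylation reader *UHRF1* were higher in the libraries labeled LV-*ATF7*, and the clamp *PCNA*, the licensing factors *CDC6* and *ORC6*, the ligase *LIG1* and the checkpoint mediator *CLSPN* were lower. The largest rise was that of *MCM3*, 3.78-fold, and the largest fall that of *CLSPN*, 4.91-fold. In edgeR's quasi-likelihood test, adjusted by the Benjamini-Hochberg method over 12462 genes, 23 of the 49 differed at an adjusted p under 0.05, which is 46.9%, against 67.6% of all genes tested. Of these, 10 rose, beside 34.7% of all genes, and 13 fell, beside 32.9% of all genes. A fold change of at least 1.5 was reached by 18 of the 23, or 36.7% of the 49, against 52.9% of all genes. In 23 of the 49 the CPM of the groups did not overlap, against 72.7% of all genes. No test was made of the difference between these shares. Counts by role further on are to be read beside the same shares of all genes. Without LV-NC replicate 1 those shares were 39.9% higher and 40.2% lower. Their median log2 fold change was -0.10, with a range from -2.29 to 1.92, beside a median of 0.00 over the whole table. Since the libraries are bulk RNA, fewer cells in S phase and less of an mRNA per cell cannot be told apart here.

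**Figure D1:**
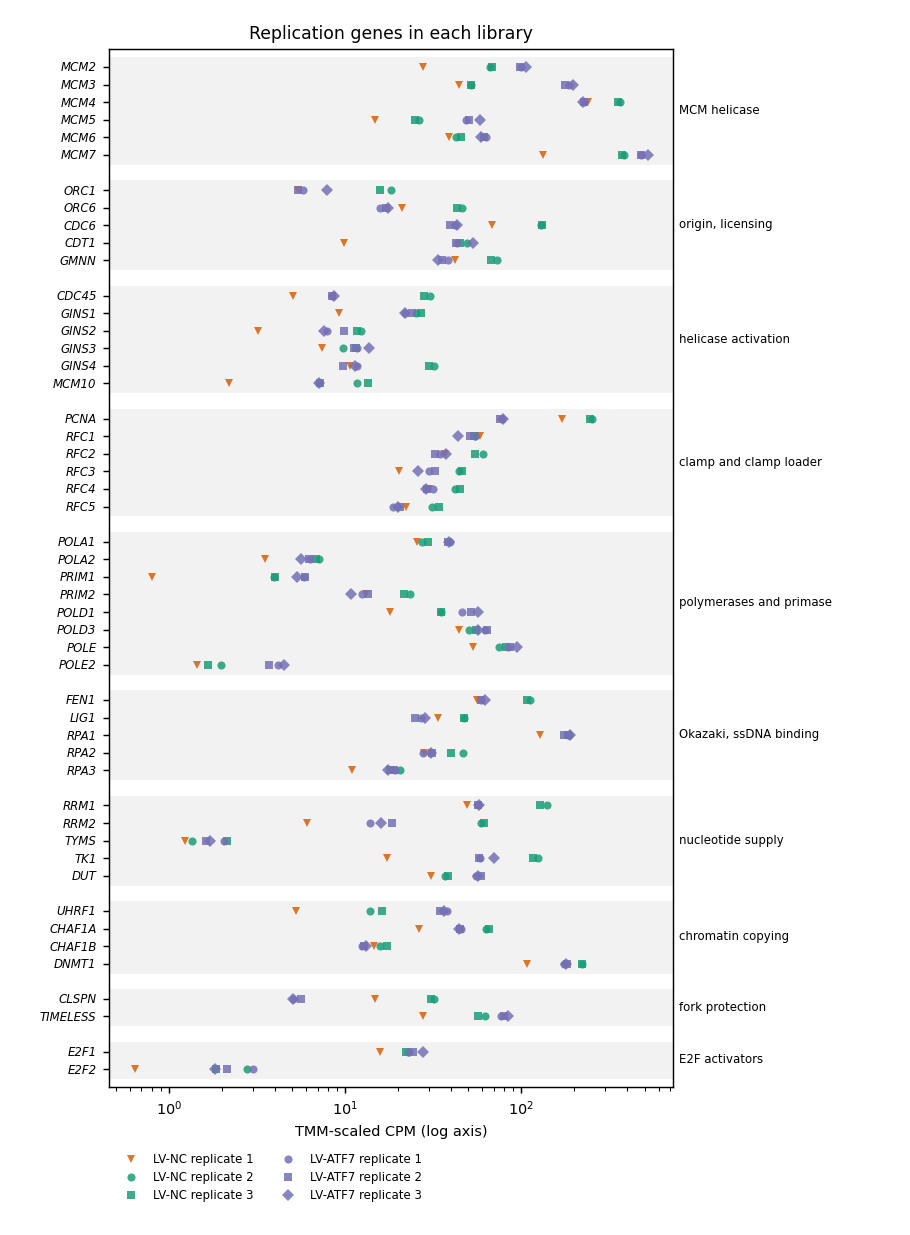
Level of each of the 49 replication genes in each of the 6 libraries, as TMM-scaled CPM on a logarithmic axis, with genes grouped by role. LV-NC replicate 1 (triangles) lies to the left of the other LV-NC libraries in 48 of 49 genes, and the 3 LV-*ATF7* libraries lie close together.

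The calls depended on single libraries. Without LV-NC replicate 1 the number of replication genes called was 37, and it was 17 without LV-NC replicate 2, 17 without LV-NC replicate 3, and 14, 15 and 13 without LV-*ATF7* replicates 1, 2 and 3. Over all genes the same fits, in that order, called 10011, 7720, 7614, 7382, 7290 and 7463, against 8429 with all 6 libraries. LV-NC replicate 1 was singled out by its own values, so calls and adjusted p-values without it, here and further on, are descriptive. Called in the full fit and in each of the 13 alternatives were 7 genes that rose (*MCM3*, *MCM5*, *MCM6*, *POLA1*, *POLE2*, *DUT* and *UHRF1*) and 6 that fell (*ORC6*, *CDC6*, *GMNN*, *PCNA*, *LIG1* and *CLSPN*). *MCM4*, *GINS4*, *RFC2*, *PRIM2*, *FEN1* and *RRM1* lost their call when any library other than LV-NC replicate 1 was left out. *MCM2* and *TIMELESS* lost it without any one of the LV-*ATF7* libraries, *RFC5* without LV-*ATF7* replicate 1 or 3 and *POLD1* without LV-*ATF7* replicate 3, and the edgeR adjusted p in all these fits was 0.0518 to 0.125. *TIMELESS* also lost its call with library size alone (edgeR adjusted p = 0.0786). Scaling by library size alone put the median over all genes at -0.16 on the log2 fold scale, and it gave 9 replication genes higher and 19 lower, so that 32.1% of the calls were rises against 43.5% with TMM. Over all genes it called 8559, and their split into rises and falls is not given here. The shift toward falls is therefore not shown to be particular to the replication genes.

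The promoters of *MCM3* and *CLSPN*, the genes with the largest changes, and of *ORC6*, the called gene with the largest change whose promoter held no E2F motif, are shown because replication genes are known targets of E2F factors. The sequences are those of RefSeq (GRCh38.p14), from 250 bases before to 50 after the transcription start, 5′ to 3′ on the strand of the gene. *CLSPN* is chr1:35769929-35770228 (minus strand), *MCM3* is chr6:52284693-52284992 (minus strand) and *ORC6* is chr16:46689409-46689708 (plus strand). Capitals mark E2F motifs.
CLSPN: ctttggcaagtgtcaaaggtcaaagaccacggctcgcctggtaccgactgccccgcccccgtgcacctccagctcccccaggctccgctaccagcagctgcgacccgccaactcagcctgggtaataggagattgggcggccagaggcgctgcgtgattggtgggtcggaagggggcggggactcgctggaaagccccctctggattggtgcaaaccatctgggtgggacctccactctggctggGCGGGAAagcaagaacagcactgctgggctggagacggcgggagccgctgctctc
MCM3: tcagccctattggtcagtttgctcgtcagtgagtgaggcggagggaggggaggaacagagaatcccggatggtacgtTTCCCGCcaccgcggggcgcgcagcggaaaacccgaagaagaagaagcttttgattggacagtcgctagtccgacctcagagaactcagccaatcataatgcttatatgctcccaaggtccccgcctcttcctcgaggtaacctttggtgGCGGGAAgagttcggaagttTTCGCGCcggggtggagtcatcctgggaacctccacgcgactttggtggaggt
ORC6: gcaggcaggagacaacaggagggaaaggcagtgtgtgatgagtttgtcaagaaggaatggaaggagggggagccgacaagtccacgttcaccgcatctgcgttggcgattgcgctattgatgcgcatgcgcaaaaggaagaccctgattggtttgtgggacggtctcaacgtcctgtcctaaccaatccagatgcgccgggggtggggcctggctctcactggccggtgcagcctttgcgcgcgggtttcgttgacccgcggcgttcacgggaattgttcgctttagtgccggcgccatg

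An E2F motif was counted where the letters TTCCCGC stood on either strand, or with them the variant TTCGCGC, the variant TTGCCGC or the variant TTGGCGC. The *CLSPN* promoter held 1, from -5 to 2 counted from the start, which overlaps a GC box (GGGCGG) from -7 to -2. The *MCM3* promoter held 3, from -173 to -167, from -23 to -17 and from -3 to 4, and GENCODE release 29 places the start of *MCM3* upstream of the RefSeq one, at position 52284881 within the window. A promoter was found by symbol for 43 of the 49 genes, and *MCM4*, *MCM5*, *GINS4*, *POLD3*, *RPA2* and *RPA3* were not matched. Of the 43 promoters 33, or 76.7%, held an E2F motif, against 13.0% of 35116 promoters in the RefSeq table and 20.8% of the 10108 promoters of genes tested here. Restricted to the bases before the start, the shares were 48.8% and 10.9% of the whole table. The motif was present in 7 of 9 promoters of genes that rose, 7 of 11 of genes that fell and 19 of 23 of genes not called. Such a match is a description of letters, not of binding.

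Other motifs were counted in the same windows on both strands. The CCAAT box (CCAAT) stood in 24 of 43 promoters (55.8%), against 34.6% of the whole table and 36.7% of genes tested. The GC box stood in 30 (69.8%), against 45.0% and 70.1%. The CHR element of G2/M genes (TTTGAA or TTCGAA) stood in 2 (4.65%), against 16.4% and 11.1%, and these were *MCM6* and *RRM1*. The full cyclic AMP response element (TGACGTCA), the palindrome that ATF family factors are known to bind, stood in 3 of 43 (6.98%), against 1.85% and 3.29%. Those were *MCM10*, *RFC1* and *RFC3*, none of which was called between the groups with all 6 libraries.

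The MCM2-7 complex is a ring of 6 subunits that unwinds DNA at the fork. Of the 6 mRNAs 4 rose (*MCM2*, *MCM3*, *MCM5* and *MCM6*), beside 34.7% of all genes. *MCM4* fell, beside 32.9%, and *MCM7* was not called, and the median log2 fold change was 0.82. *MCM3* (ENSG00000112118), at chr6:52264009-52284881, minus strand (GRCh38, GENCODE release 29), stood at 44.2, 51.9 and 52.1 CPM in LV-NC and 186, 178 and 197 CPM in LV-*ATF7*. All 3 LV-*ATF7* libraries were above all LV-NC libraries, LV-NC replicate 1 included, and the means were 49.4 ± 4.49 CPM in LV-NC and 187 ± 9.70 CPM in LV-*ATF7* (SD, n = 3 each). The difference was the largest rise among the replication genes (log2 fold change 1.92, SE 0.10, edgeR adjusted p = 3.8e-06), and it was 1.83 on the log2 scale without LV-NC replicate 1. *MCM5* stood at 14.7, 26.1 and 25 CPM in LV-NC and 48.5, 50.5 and 58.1 CPM in LV-*ATF7* (log2 fold change 1.25, SE 0.21, edgeR adjusted p = 0.000991), also with no overlap. *MCM4* went the other way, at 237, 365 and 353 CPM in LV-NC and 226, 226 and 225 CPM in LV-*ATF7* (log2 fold change -0.50, SE 0.16, edgeR adjusted p = 0.0234). Its LV-*ATF7* libraries lay close together, and LV-NC replicate 1 was the LV-NC library nearest to them. *MCM7* stood at 132, 380.5 and 371 CPM in LV-NC and 479.8, 476 and 521 CPM in LV-*ATF7* (log2 fold change 0.74, SE 0.34, edgeR adjusted p = 0.088). LV-NC replicate 1 was far below the other libraries for this gene, and without it *MCM7* was called higher (log2 fold change 0.37, edgeR adjusted p = 1.3e-05). *MCM2* shares 23.6% of its exon bases with other annotated genes on the other strand.

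**Figure D2:**
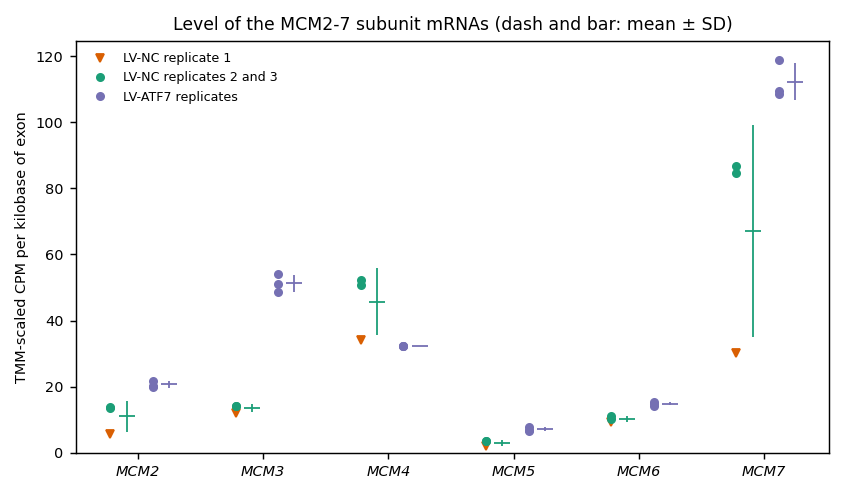
Level of the 6 MCM2-7 mRNAs per kilobase of exon in each library (points), with the mean ± SD of the 3 libraries of each group (dash and bar). *MCM7* was highest and *MCM5* lowest in both groups, and *MCM3* stood below *MCM4* in LV-NC and above it in LV-*ATF7*.

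Levels between genes were compared per kilobase of exon, with the exons of all transcripts counted once. On this scale the 6 MCM mRNAs, whose proteins stand in equal number in the ring, were spread 22.5-fold in LV-NC and 15.7-fold in LV-*ATF7*. In LV-NC the order was *MCM7* at 67.2 ± 32.1 CPM per kilobase, *MCM4* at 45.7 ± 10.1, *MCM3* at 13.5 ± 1.23, *MCM2* at 11.1 ± 4.65, *MCM6* at 10.3 ± 0.854 and *MCM5* at 2.99 ± 0.856 (SD, n = 3). Among neighbors in this order, the ranges of *MCM7* and *MCM4* overlapped, as did those of *MCM3* and *MCM2*, and of *MCM2* and *MCM6*. The ranges of *MCM4* and *MCM3*, and of *MCM6* and *MCM5*, did not. Within each LV-NC library *MCM3* stood above *MCM2* (12.1 against 5.68, 14.2 against 13.5 and 14.3 against 13.9). *MCM7* and *MCM4*, and *MCM2* and *MCM6*, stood in the other order in LV-NC replicate 1. In LV-*ATF7* the order was *MCM7* at 112 ± 5.72, *MCM3* at 51.2 ± 2.66, *MCM4* at 32.3 ± 0.0750, *MCM2* at 20.7 ± 0.998, *MCM6* at 14.8 ± 0.503 and *MCM5* at 7.14 ± 0.687 CPM per kilobase, and no neighbors overlapped. The ratio of *MCM3* to *MCM4* within a library, in CPM, was 0.186, 0.142 and 0.148 in LV-NC and 0.826, 0.787 and 0.876 in LV-*ATF7*. This ratio, and those given further on, were chosen after the values had been seen. The order and the spread rest on the length used. The lengths behind the deposited FPKM are not given and are not the exon lengths used here. In LV-NC *MCM7* had a mean of 14.3 FPKM beside 67.2 CPM per kilobase, and *MCM6* 8.86 FPKM beside 10.3. By the deposited FPKM the MCM mRNAs were spread 8.88-fold in LV-NC and 6.25-fold in LV-*ATF7*, and which lengths are right was not tested. Only 26 of 48 places in 6 complexes and 2 groups were the same, and the rank of *MCM3* and *MCM4* in LV-NC was among those that changed.

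*ORC1*, *ORC6*, *CDC6*, *CDT1* and *GMNN*, the origin and licensing genes among the 49, fell or were not called. Of the 5 genes 3 fell (*CDC6*, *ORC6* and *GMNN*) and none rose, beside 32.9% and 34.7% of all genes. The other 2 were not called (*ORC1* and *CDT1*), and the median log2 fold change was -1.04. *CDC6*, the ATPase that loads the helicase at origins, stood at 68.1, 129.9 and 132 CPM in LV-NC and 41.8, 39.3 and 43.4 CPM in LV-*ATF7* (log2 fold change -1.41, SE 0.24, edgeR adjusted p = 0.00101). *ORC6*, the smallest subunit of the origin recognition complex, stood at 21, 46.2 and 43.1 CPM in LV-NC and 15.8, 17 and 17.4 CPM in LV-*ATF7* (log2 fold change -1.14, SE 0.27, edgeR adjusted p = 0.00627). For both genes every LV-*ATF7* library was below every LV-NC library, and LV-NC replicate 1 was the nearest LV-NC library. *GMNN*, whose product inhibits *CDT1*, had a log2 fold change of -0.76 (edgeR adjusted p = 0.0088), and *ORC1* one of -1.04 that missed the threshold (edgeR adjusted p = 0.0503). *CDT1* stood at 9.85, 49.2 and 45 CPM in LV-NC and 43.4, 42.6 and 53.2 CPM in LV-*ATF7*, so LV-NC replicate 1 was far below all others and the other 5 libraries lay together. The ratio of *CDT1* to *GMNN* within a library was 0.235, 0.680 and 0.671 in LV-NC and 1.13, 1.20 and 1.59 in LV-*ATF7*, with no overlap. Without LV-NC replicate 1 the count was 4 lower (*ORC1* added) and 0 higher, beside 40.2% and 39.9% of all genes. Other subunits of the origin recognition complex, named after their values had been seen, went both ways, with *ORC2* (log2 fold change 0.91, SE 0.14, edgeR adjusted p = 0.000664), *ORC3* (log2 fold change 0.91, SE 0.25, edgeR adjusted p = 0.0113) and *ORC5* (log2 fold change 0.51, SE 0.17, edgeR adjusted p = 0.0277) higher and *ORC4* (log2 fold change -0.53, SE 0.11, edgeR adjusted p = 0.00359) lower.

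Among the genes that activate the loaded helicase, *GINS4* fell and the other 5 were not called, and the median log2 fold change was -0.22. *GINS4*, a subunit of the GINS complex that sits between *CDC45* and the MCM ring, stood at 10.7, 32 and 29.8 CPM in LV-NC and 11.7, 9.79 and 11.4 CPM in LV-*ATF7* (log2 fold change -1.14, SE 0.37, edgeR adjusted p = 0.0238). LV-NC replicate 1 lay within the LV-*ATF7* range and the other LV-NC libraries were well above it. *GINS4* shares 23.6% of its exon bases with another annotated gene, on the other strand, so reads counted without strand could come from either. *CDC45*, the cofactor of the moving helicase, stood at 5.09, 30.1 and 28 CPM in LV-NC and 8.48, 8.46 and 8.63 CPM in LV-*ATF7* (log2 fold change -1.30, SE 0.54, edgeR adjusted p = 0.0624). Here LV-NC replicate 1 was below every LV-*ATF7* library and LV-NC replicates 2 and 3 were above them all. Without LV-NC replicate 1, *CDC45* was called lower (log2 fold change -1.79, edgeR adjusted p = 3.65e-13). *GINS1*, *GINS2*, *GINS3* and *MCM10* had log2 fold changes from -0.35 to 0.35. Without LV-NC replicate 1 the role had 4 genes lower and 0 higher, beside 40.2% and 39.9% of all genes.

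*PCNA*, the sliding clamp that holds polymerases on DNA, had the second largest fall of the replication genes with all 6 libraries. When LV-NC replicate 1 was left out, *RRM2* (-1.92) and *CDC45* (-1.79) fell further than *PCNA* (-1.70) on the log2 scale. The gene (ENSG00000132646) is at chr20:5114953-5126626, minus strand (GRCh38, GENCODE release 29), and stood at 171, 252 and 244 CPM in LV-NC and 77.6, 75.7 and 78.5 CPM in LV-*ATF7*. The groups did not overlap, with means of 222 ± 44.9 CPM in LV-NC and 77.3 ± 1.44 CPM in LV-*ATF7* (SD, n = 3 each). The fall was 2.88-fold (log2 fold change -1.52, SE 0.15, edgeR adjusted p = 6.3e-05). *RFC5*, a small subunit of the clamp loader, stood at 22.1, 31.2 and 34.2 CPM in LV-NC and 18.8, 20.5 and 19.9 CPM in LV-*ATF7* (log2 fold change -0.56, SE 0.17, edgeR adjusted p = 0.0183), and its groups did not overlap either. *RFC2* fell with a log2 fold change of -0.54, and *RFC1*, *RFC3* and *RFC4* were not called, at -0.16, -0.33 and -0.38. In all, 3 of 6 clamp and loader genes fell, beside 32.9% of all genes, and none rose, beside 34.7%. Their median log2 fold change was -0.46. Without LV-NC replicate 1, 5 of 6 fell, beside 40.2% of all genes. The exception was *RFC1*, the large subunit, which stood at 58.5, 54.7 and 53.7 CPM in LV-NC and 54.5, 51.2 and 43.6 CPM in LV-*ATF7* with overlap between the groups. *PCNA* has 3 annotated pseudogenes and *RFC5* has 1, and how the counting treated reads shared with them is not given in the sources used here.

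Polymerase and primase subunits differed within single complexes. Of 8 genes 3 rose (*POLE2*, *POLD1* and *POLA1*), beside 34.7% of all genes, and *PRIM2* fell, beside 32.9%. The other 4 were not called, and the median log2 fold change was 0.41. *POLE2*, the second subunit of polymerase epsilon, stood at 1.45, 1.99 and 1.68 CPM in LV-NC and 4.19, 3.72 and 4.54 CPM in LV-*ATF7* (log2 fold change 1.28, SE 0.21, edgeR adjusted p = 0.00101). The LV-*ATF7* libraries were all above the LV-NC libraries, at levels that are low for this set of genes. Primase has 2 subunits, of which *PRIM1* carries the catalytic site. *PRIM1* stood at 0.803, 3.93 and 3.99 CPM in LV-NC and 5.86, 5.96 and 5.36 CPM in LV-*ATF7* (log2 fold change 0.98, SE 0.47, edgeR adjusted p = 0.0949), with no overlap between groups, but with LV-NC replicate 1 far below the other LV-NC libraries. *PRIM2*, the large subunit, stood at 13.1, 23.5 and 21.5 CPM in LV-NC and 12.6, 13.5 and 10.8 CPM in LV-*ATF7* (log2 fold change -0.66, SE 0.22, edgeR adjusted p = 0.0304), and there LV-NC replicate 1 was within the LV-*ATF7* range. The ratio of *PRIM1* to *PRIM2* was 0.0612, 0.167 and 0.186 in LV-NC and 0.467, 0.443 and 0.497 in LV-*ATF7*. *PRIM1* shares 21.6% of its exon bases with other annotated genes, and 16.2% with genes on the same strand. *POLD1*, the catalytic subunit of polymerase delta, had a log2 fold change of 0.81 (edgeR adjusted p = 0.0164) and *POLA1*, that of polymerase alpha, one of 0.50 (edgeR adjusted p = 0.00273). *POLA2*, *POLD3* and *POLE* were not called, at 0.06, 0.28 and 0.33. *POLA2* shares 35.1% of its exon bases with genes on the same strand. Without LV-NC replicate 1, 4 of the 8 rose, with *PRIM1* added, beside 39.9% of all genes, and *PRIM2* still fell.

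The enzymes that finish Okazaki fragments, the short pieces of the lagging strand, fell. *LIG1*, the ligase that seals them, stood at 33.9, 47 and 47.6 CPM in LV-NC and 27.1, 24.8 and 28.5 CPM in LV-*ATF7* (log2 fold change -0.68, SE 0.15, edgeR adjusted p = 0.00424). *FEN1*, the nuclease that trims the flap in front of the next fragment, stood at 56.1, 113 and 108 CPM in LV-NC and 58.7, 58.7 and 62 CPM in LV-*ATF7* (log2 fold change -0.63, SE 0.24, edgeR adjusted p = 0.0454). The groups did not overlap for *LIG1*, whereas for *FEN1* LV-NC replicate 1 was below all LV-*ATF7* libraries. The 3 subunits of RPA, which coats single-stranded DNA, were not called. *RPA1* was at 0.14, *RPA2* at -0.35 and *RPA3* at 0.17 on the log2 fold scale, and without LV-NC replicate 1 *RPA2* alone of the 3 was called, lower at -0.56.

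Nucleotide supply genes moved in both directions, with *DUT* higher, *RRM1* lower and 3 of 5 not called. *RRM1*, the large subunit of ribonucleotide reductase, the enzyme that makes deoxynucleotides, stood at 49.1, 139.5 and 128 CPM in LV-NC and 56.8, 56.5 and 57.6 CPM in LV-*ATF7* (log2 fold change -0.89, SE 0.33, edgeR adjusted p = 0.0432). *RRM2*, its small subunit in dividing cells, stood at 6.05, 59.2 and 61.1 CPM in LV-NC and 13.8, 18.4 and 15.9 CPM in LV-*ATF7* (log2 fold change -1.39, SE 0.67, edgeR adjusted p = 0.0991). For both, LV-NC replicate 1 was below every LV-*ATF7* library and LV-NC replicates 2 and 3 were above every one. The call for *RRM1* and the missed call for *RRM2* therefore rest on a group with a wide spread, and without LV-NC replicate 1 both were called lower (*RRM1* -1.25, edgeR adjusted p = 1.52e-13, and *RRM2* -1.92, edgeR adjusted p = 1.43e-14). *DUT*, which removes dUTP so that uracil is not built into DNA, went the other way and stood at 30.8, 36.8 and 38.3 CPM in LV-NC and 55.3, 59.3 and 57.1 CPM in LV-*ATF7* (log2 fold change 0.70, SE 0.11, edgeR adjusted p = 0.000709), with no overlap. *DUT* has 8 annotated pseudogenes. *RRM2* has 3, and it shares 20.2% of its exon bases with other annotated genes on the same strand. *TK1*, the thymidine kinase of S phase, stood at 17.4, 124 and 117 CPM in LV-NC and 57.9, 57.8 and 69.7 CPM in LV-*ATF7* and was not called, and *TYMS*, thymidylate synthase, was low in every library, at 1.23 to 2.14 CPM. *TYMS* shares 46.6% of its exon bases with *ENOSF1* on the other strand.

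*UHRF1*, *DNMT1*, *CHAF1A* and *CHAF1B*, which act in copying chromatin and DNA methylation behind the fork, showed 1 rise and no fall. *UHRF1* (ENSG00000276043), which reads hemimethylated DNA and brings *DNMT1* to it, is at chr19:4903080-4962154, plus strand (GRCh38, GENCODE release 29). It stood at 5.25, 13.9 and 16.2 CPM in LV-NC and 38.1, 34.7 and 36.5 CPM in LV-*ATF7* (log2 fold change 1.63, SE 0.35, edgeR adjusted p = 0.00345), with every LV-*ATF7* library above every LV-NC library. Without LV-NC replicate 1 the log2 fold change was 1.26. *DNMT1*, the maintenance methyltransferase, had the smallest change of the 49 genes and stood at 108, 220.0 and 219.7 CPM in LV-NC and 175, 181 and 179 CPM in LV-*ATF7* (log2 fold change -0.03, SE 0.24, edgeR adjusted p = 0.909). Its LV-*ATF7* libraries lay between LV-NC replicate 1 and the other LV-NC libraries, and without that library *DNMT1* was called lower (log2 fold change -0.32, edgeR adjusted p = 0.000117). *CHAF1B*, a subunit of the CAF-1 histone chaperone, stood at 14.6, 15.7 and 17.2 CPM in LV-NC and 12.5, 12.8 and 13.2 CPM in LV-*ATF7* (log2 fold change -0.30, SE 0.13, edgeR adjusted p = 0.0635), with no overlap but a difference that missed the threshold. *CHAF1A*, its partner, had a log2 fold change of -0.21, and without LV-NC replicate 1 it, *CHAF1B* and *DNMT1* were all called lower. Chromatin genes outside the 49, named after their values had been seen, went both ways, with *RBBP4*, a further CAF-1 subunit (log2 fold change 1.56, SE 0.12, edgeR adjusted p = 2.01e-05), and *SSRP1* (log2 fold change 0.75, SE 0.20, edgeR adjusted p = 0.0102) higher and *ASF1A* (log2 fold change -1.10, SE 0.20, edgeR adjusted p = 0.00168) and *RBBP7* (log2 fold change -0.52, SE 0.15, edgeR adjusted p = 0.0169) lower.

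The 2 fork protection genes moved in opposite directions. *CLSPN* encodes claspin, which travels with the fork and passes the checkpoint signal on to CHK1. The gene (ENSG00000092853) is at chr1:35720218-35769967, minus strand (GRCh38, GENCODE release 29). It stood at 14.9, 32 and 30.6 CPM in LV-NC and 5.08, 5.61 and 5.09 CPM in LV-*ATF7*. Every LV-*ATF7* library was below every LV-NC library, with means of 25.9 ± 9.52 CPM in LV-NC and 5.26 ± 0.302 CPM in LV-*ATF7* (SD, n = 3 each), and LV-NC replicate 1 was below its group mates. The fall was the largest among the replication genes (log2 fold change -2.29, SE 0.29, edgeR adjusted p = 0.000224). *TIMELESS*, which holds the polymerases to the helicase, stood at 27.6, 61.9 and 56.9 CPM in LV-NC and 76.6, 79.5 and 83.6 CPM in LV-*ATF7* (log2 fold change 0.71, SE 0.26, edgeR adjusted p = 0.0411), and its groups did not overlap. The ratio of *CLSPN* to *TIMELESS* was 0.539, 0.518 and 0.539 in LV-NC, with replicate 1 at the level of the others, and 0.0663, 0.0705 and 0.0609 in LV-*ATF7*.

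*E2F1* and *E2F2*, activators that drive many of these genes, were not called. *E2F1* stood at 15.7, 23.1 and 22.2 CPM in LV-NC and 22.7, 24.3 and 27.8 CPM in LV-*ATF7* (log2 fold change 0.29, SE 0.17, edgeR adjusted p = 0.158), and *E2F2* at 0.642, 2.78 and 1.85 CPM in LV-NC and 3.01, 2.14 and 1.82 CPM in LV-*ATF7* (log2 fold change 0.40, SE 0.46, edgeR adjusted p = 0.467). The groups overlapped for both genes. Without LV-NC replicate 1 the log2 fold changes were 0.12 and -0.03. *E2F3*, a further activator that is not among the 49, was called higher (log2 fold change 0.36, SE 0.09, edgeR adjusted p = 0.00763) and was singled out after its values had been seen.

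Leaving out LV-NC replicate 1 gave 37 of 49 genes called (75.5%), against 80.1% of all genes in the same fit. Of these 12 rose, beside 39.9% of all genes, and 25 fell, beside 40.2%. None of the 23 calls of the full fit was lost and 14 were gained, of which *MCM7* and *PRIM1* rose and 12 fell (*ORC1*, *CDC45*, *GINS2*, *MCM10*, *RFC3*, *RFC4*, *RPA2*, *RRM2*, *TK1*, *CHAF1A*, *CHAF1B* and *DNMT1*). In 6 genes that were not called in either fit the sign changed (*CDT1*, *GINS1*, *POLA2*, *RPA1*, *RPA3* and *E2F2*). The median log2 fold change of the 49 went from -0.10 to -0.32, while that of all genes was -0.01. Not called in either fit were 12 genes, among them *CDT1*, *RFC1*, *POLE*, *RPA1*, *TYMS*, *E2F1* and *E2F2*. The library left out was chosen for its distance from its group mates, which by itself narrows the spread in this fit. The SE of *RRM2*, for example, was 0.673 with all 6 libraries and 0.105 without it. In this fit 2 LV-NC libraries stand for the group, and they differed from each other by a median of 0.09 on the log2 scale over the 49 genes and by at most 0.65, in *TYMS*. Within LV-*ATF7* the range over the 3 libraries had a median of 0.15 and was at most 0.72, in *E2F2*.

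**Figure D3:**
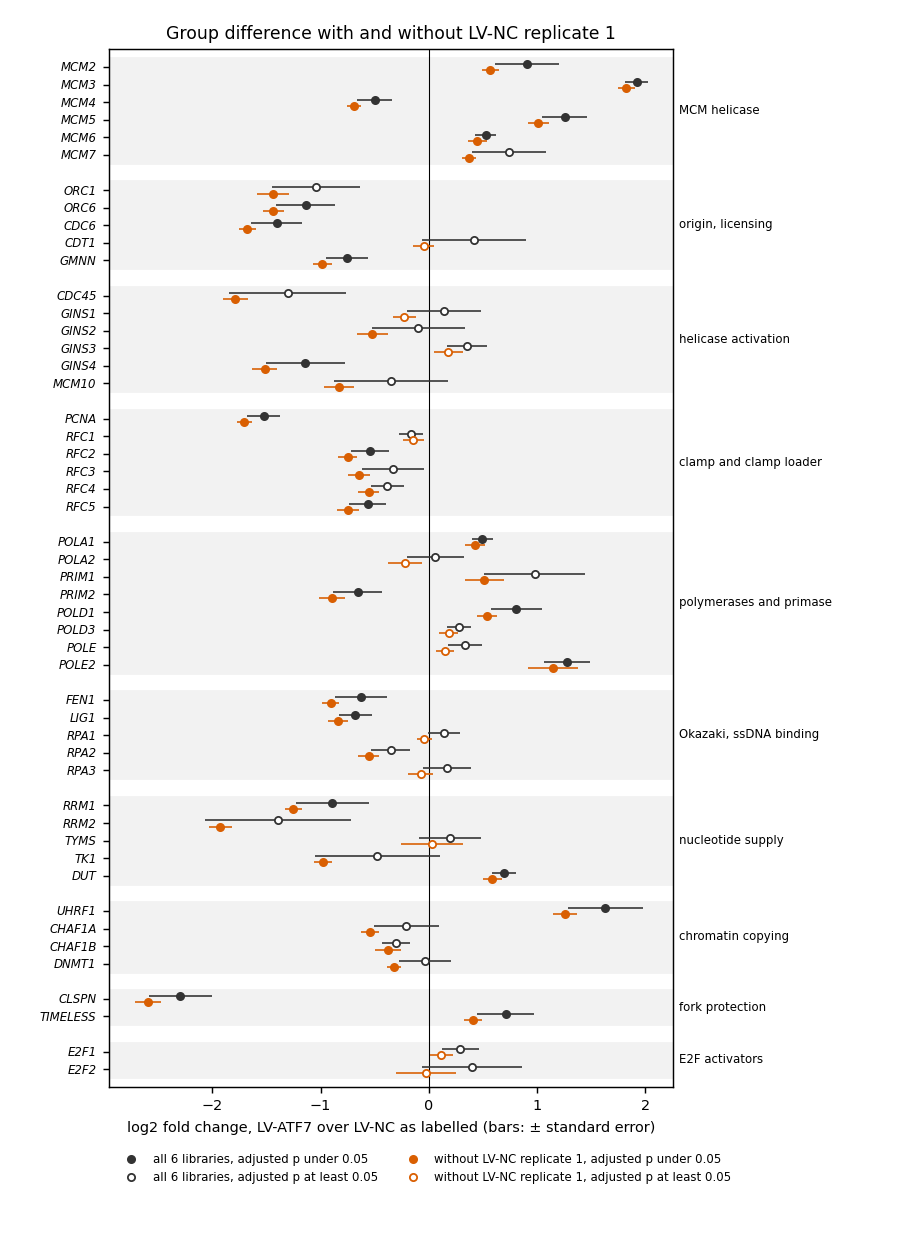
Log2 fold change between the groups as labeled (LV-*ATF7* against LV-NC) for each replication gene with all 6 libraries (black) and without LV-NC replicate 1 (orange), where bars are ± 1 standard error and filled points have an adjusted p under 0.05. The 23 genes called with all libraries stay filled and 14 more are filled without the library, 12 of them to the left of 0.

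LV-NC replicate 1 held less of nearly every replication mRNA than its group mates. It was below both of them in 48 of 49 genes (98.0%), against 43.7% of all genes tested, and *RFC1* was the exception. It was at least 1.5-fold below both in 29 genes (59.2%), against 10.2% of all genes, and at least 1.5-fold above both in 0 of 49, against 9.24% of all genes. The library was singled out by its own values, so no test was made of it. The median log2 ratio to the mean of replicates 2 and 3 was -0.94 over the 49 genes and 0.01 over all genes. With a fold of 2 in place of 1.5 the count below both was 21, and with TMM factors from the LV-NC libraries alone it was 29. The shares of all genes under these settings are not given here.

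**Figure D4:**
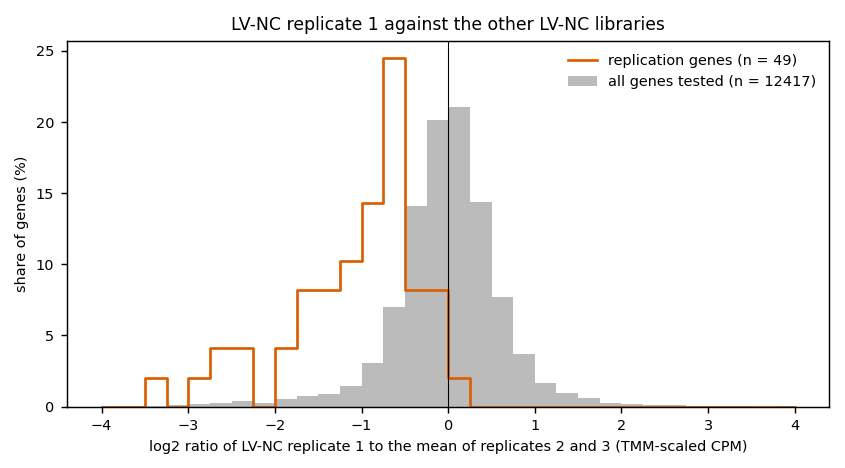
Share of genes (%) by the log2 ratio of LV-NC replicate 1 to the mean of LV-NC replicates 2 and 3, in bins of 0.25, for the 49 replication genes (line) and for the 12417 genes tested that had a count above 0 on both sides (filled). The replication genes lie almost wholly to the left of 0, with a median of -0.94, where all genes center on 0.

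The shortfall was uneven across roles. Farthest below were *RRM2*, at -3.31 or 9.94-fold lower, *TK1* at -2.79 or 6.91-fold lower, *MCM10* at -2.52, *CDC45* at -2.51 and *PRIM1* at -2.30. Nearest to their group mates were *RFC1* at 0.11, *POLA1* at -0.16, *CHAF1B* at -0.17, *MCM6* at -0.19 and *MCM3* at -0.23. By role the median log2 ratio was -1.72 for the helicase activation genes and -1.45 for nucleotide supply, and -0.70 for the MCM helicase, -0.66 for polymerases and primase and -0.55 for the clamp and its loader. Single complexes were split, since *MCM6* was 1.14-fold below and *MCM7* 2.84-fold below, and *POLA1* 1.12-fold below while *PRIM1* was 4.94-fold below. Against the LV-*ATF7* libraries, LV-NC replicate 1 was below their range in 33 genes, within it in 6 and above it in 10. The 10 were *MCM4*, *ORC6*, *CDC6*, *GMNN*, *PCNA*, *RFC1*, *RFC5*, *LIG1*, *CHAF1B* and *CLSPN*. The same positions over all genes are not given here, and in 72.7% of all genes the 2 groups did not overlap. A place outside the LV-*ATF7* range is therefore common in this table.

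Other genes of the pathway, from lists written beside the 49, also moved in both directions. Of 41 further replication genes 39 were tested (*CHTF8* and *RNASEH2A* had no row), of which 9 rose and 18 fell, beside 34.7% and 32.9% of all genes, with a median log2 fold change of -0.40. Leaving LV-NC replicate 1 out, 24 fell, beside 40.2% of all genes. The largest rises were those of *CDC7*, the kinase that fires licensed origins (log2 fold change 1.60, SE 0.30, edgeR adjusted p = 0.00186), and *POLD2*, a subunit of polymerase delta (log2 fold change 1.59, SE 0.20, edgeR adjusted p = 0.000209). The largest falls were those of *ESCO2*, which acetylates cohesin in S phase (log2 fold change -1.85, SE 0.54, edgeR adjusted p = 0.0163), and *ASF1B*, a histone chaperone (log2 fold change -1.63, SE 0.51, edgeR adjusted p = 0.0211). The groups overlapped for both. LV-NC replicate 1 was within the LV-*ATF7* range for *ESCO2* (3.86 CPM, against 3.43 to 4.58) and below it for *ASF1B* (27.5 CPM, against 30.6 to 34.9). *DBF4*, the activating partner of *CDC7*, went the other way from it and stood at 67.6, 77.2 and 65.5 CPM in LV-NC and 34.2, 30.6 and 28.5 CPM in LV-*ATF7* (log2 fold change -1.17, SE 0.11, edgeR adjusted p = 5.61e-05), and it was singled out after its values had been seen.

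Further genes of nucleotide synthesis mostly rose. Of 33 tested 21 rose and 6 fell, beside 34.7% and 32.9% of all genes, with a median log2 fold change of 0.61. *NME2*, a nucleoside diphosphate kinase, rose by 2.21 on the log2 scale from levels at or under 1.39 CPM in LV-NC. *RRM2B*, the form of the small reductase subunit that is known to be induced by p53, fell and stood at 109, 141 and 130.2 CPM in LV-NC and 25, 25 and 21.8 CPM in LV-*ATF7* (log2 fold change -2.40, SE 0.13, edgeR adjusted p = 3.61e-06). *DCK*, the deoxycytidine kinase of the salvage pathway, had a log2 fold change of -1.30 (edgeR adjusted p = 0.000611). The ratio of *RRM2* to *RRM2B* within a library was 0.0554, 0.421 and 0.470 in LV-NC and 0.551, 0.735 and 0.731 in LV-*ATF7*.

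Of 30 G1/S control genes 10 were higher and 12 lower, shares close to the 34.7% and 32.9% of all genes, and the median log2 fold change was -0.06. *CDKN2A*, which encodes the CDK inhibitor p16 and the p53 activator ARF, had the largest rise (log2 fold change 2.34, SE 0.11, edgeR adjusted p = 2.33e-06), followed by *MYC* (log2 fold change 2.22, SE 0.14, edgeR adjusted p = 8.27e-06). *MYBL2*, a cell cycle transcription factor, had the largest fall (log2 fold change -2.46, SE 0.66, edgeR adjusted p = 0.0109) and LV-NC replicate 1 stood below all LV-*ATF7* libraries for it, and *CDKN2C*, an inhibitor of *CDK4* and *CDK6*, had the next (log2 fold change -2.38, SE 0.29, edgeR adjusted p = 0.000193). Of 12 checkpoint genes 3 rose and 4 fell, beside the same 34.7% and 32.9%, with *CDC25B* at 1.79 and *ATR* at 0.57 among the rises and *CDC25C* at -2.25 and *HUS1* at -1.10 among the falls.

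Mitosis and proliferation markers had the lowest values of LV-NC replicate 1 against its group mates among the lists of cell cycle genes given here. Of 14 genes 0 rose and 5 fell, beside the same 34.7% and 32.9%, with a median log2 fold change of -1.26. Without LV-NC replicate 1 all 14 fell, beside 40.2% of all genes. *BUB1*, a spindle checkpoint kinase, stood at 22.4, 117 and 110.3 CPM in LV-NC and 21.1, 20.2 and 21.1 CPM in LV-*ATF7* (log2 fold change -2.00, SE 0.52, edgeR adjusted p = 0.00938), and *AURKB*, the kinase of the chromosomal passenger complex, at 27, 167 and 153 CPM in LV-NC and 35.3, 34.5 and 40.4 CPM in LV-*ATF7* (log2 fold change -1.66, SE 0.56, edgeR adjusted p = 0.0284). In LV-NC replicate 1 all 14 were at least 1.5-fold below both group mates, with a median log2 ratio of -2.48, against -0.94 for the 49 replication genes. Their summed level was 550.3 CPM in that library, 2835 and 2845 CPM in LV-NC replicates 2 and 3, and 873 to 889.6 CPM in LV-*ATF7*. The share of the replication gene differences that goes with this list was not tested.

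**Figure D5:**
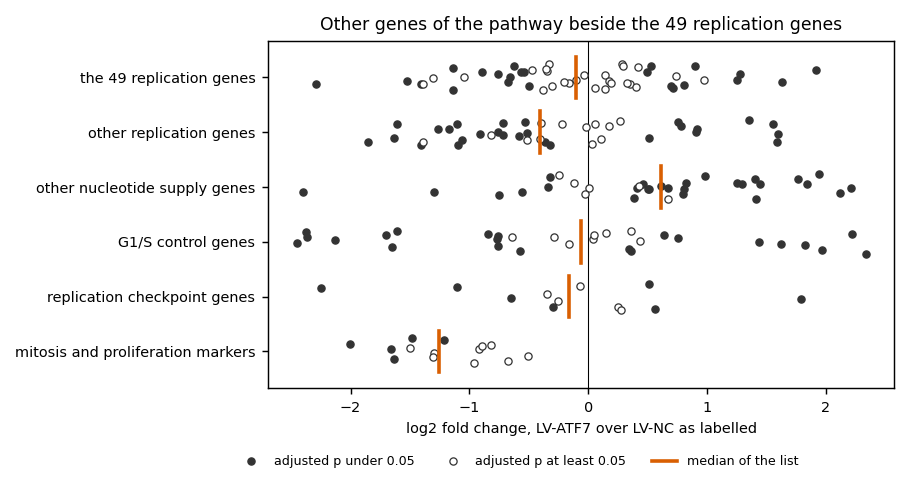
Log2 fold change between the groups as labeled (LV-*ATF7* against LV-NC) for each gene of the 49 and of 5 other lists, where filled points have an adjusted p under 0.05 and the bar is the median of a list. The other nucleotide supply genes, which are not among the 49, have a median of 0.61 and mitosis markers one of -1.26, and the 49 replication genes lie on both sides of 0.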

How the data were processed

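Poly(A) mRNA of HaCaT cells was sequenced by the authors in 6 libraries, 3 labeled LV-NC and 3 labeled LV-*ATF7*. For 12499 genes, the authors deposited unnormalized counts of reads beside FPKM values, a measure scaled by a length and the library total. The lengths used for the FPKM are not given in the sources used here. GRCh38 is the build in the submitters' processing notes, and the aligner, counting program, annotation and strandedness are not given in the sources used here. The fold change and p-value columns of the authors' own comparison were not used. Of the genes, 33 had no symbol and were kept under their identifiers. FPKM served only as an alternative for the order of levels.

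Counts were fitted with edgeR 4.0.16 (filterByExpr, TMM, glmQLFit and glmQLFTest, no covariates) in R 4.3.3, with Benjamini-Hochberg adjustment over 12462 genes and a threshold of 0.05, and 37 genes failed the filter. Standard errors (SE) were computed as the size of the log2 change over the root of F. Libraries of a group differed by a chi-square per gene of 2.83 to 74.6, so each was counted as 1 replicate, and a low count carries the wider error. Alternatives were the test of DESeq2 1.42.0, voom of limma 3.58.1 with sample quality weights, scaling by library size or by the upper quartile, a count minimum of 10 in all libraries or no minimum, a replicate block, leaving out each library, and a fold of 2. The main edgeR fit was tested on simulated counts with known changes, in which no library stood apart from its group. Python 3.11.15 was also used.

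Replication genes, lists and roles were chosen with earlier results of these data known. In each role the text gives full values for the 2 genes with the largest change, any gene called against the direction of its role, and the gene with the smallest change of all. In each other list it names the 2 largest rises and falls that were called. A gene this rule names is not reported here. For LV-NC replicate 1 it names the 5 genes farthest below and the 5 farthest above the mean of replicates 2 and 3. Promoters are those of RefSeq (GRCh38.p14), and positions, exon lengths and exon overlaps those of GENCODE release 29, in which 12485 identifiers were found.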

Additional observations from a re-analysis of the deposited data

How the results depend on the processing

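The number of replication genes called was 23 in the main analysis, and with DESeq2, with library size or upper quartile scaling, without the filter and with a minimum of 10 counts it was 23 to 28. Over all genes these alternatives called 7713 to 8559, against 8429 in the main analysis. Limma voom with sample quality weights gave LV-NC replicate 1 a weight of 0.0948 beside 0.577 to 3.66 for the others. It called 38 replication genes, of which 25 fell, and 10391 of all genes. Leaving out 1 library gave 13 to 37 replication genes called, 7 to 12 higher, 6 to 25 lower and 11 to 24 with a fold of at least 1.5, against 18. Over all genes the same fits called 7290 to 10011. A fold of at least 2 gave 9 replication genes in the main analysis, and the share of all genes at that fold is not given here. Same-numbered libraries did not deviate together from their group means (correlations of 0.0583, -0.0209 and 0.0649). With 3 libraries per group and LV-NC replicate 1 far from its group mates, this cannot exclude a pairing by number. With the number as a replicate block 24 replication genes were called (12 higher, 12 lower), and 8210 of all genes against 8429, of which 8068 were shared. *RRM1* was then at an edgeR adjusted p of 0.0539.

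Of the 49 genes 40 had the same sign in all 13 alternatives, and no gene called in the main analysis reversed. The signs that reversed were all of genes not called in the main analysis, and the cause was not tested. With library size only the log2 fold changes were -0.0066 for *GINS1*, -0.10 for *POLA2* and -0.019 for *RPA1*. With voom they were -0.043 for *CDT1*, -0.13 for *GINS1*, -0.14 for *POLA2*, -0.038 for *RPA1* and -0.0039 for *RPA3*. With the replicate block they were 0.064 for *GINS2* and 0.035 for *DNMT1*. With 1 library left out the ranges were -0.045 to 0.73 for *CDT1*, -0.22 to 0.35 for *GINS1*, -0.52 to 0.16 for *GINS2*, -0.83 to 0.0055 for *MCM10*, -0.22 to 0.20 for *POLA2*, -0.042 to 0.20 for *RPA1*, -0.075 to 0.33 for *RPA3*, -0.32 to 0.093 for *DNMT1* and -0.025 to 0.88 for *E2F2*. By deposited FPKM 26 of 48 places in the order of levels were kept, and the share of promoters with an E2F motif was 48.8% before the start alone. *POLE2*, *PRIM1*, *TYMS* and *E2F2* are near 1 CPM in some libraries, where depth limits small differences most.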
